A study of Mus musculus with 12 samples.

Results

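Chemokines are small secreted proteins that draw immune cells towards a source by binding receptors on their surface. The 10 chemokine genes described here are Cxcl9, Cxcl10, Cxcl11, Cxcl16, Ccl1, Ccl3, Ccl4, Ccl5, Ccl22 and Xcl1. They come from a list of names chosen with earlier results of these data known, so counts of members called are descriptions only. Each was found by gene symbol or Ensembl identifier among 38924 genes counted in each library. Of the 10, 9 passed the filter on low counts that left 13811 genes for testing, and Ccl1 did not. The cells were CD4+ T cells sorted from the spleens of C57BL/6 mice aged 8 to 12 weeks, of WT or STINGgt/gt genotype, treated with DMSO or CMA for 16 h. There were 3 libraries in each of the 4 groups, with 27414450 to 43784910 reads on genes per library.

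Every group had been expanded for 2 days with antibodies to CD3 and CD28 and rested for 1 day before treatment. CMA (10-carboxymethyl-9-acridanone) is a small molecule that activates mouse STING, an endoplasmic reticulum adaptor that turns on the kinase TBK1 and, through it, IRF-3 and NF-κB. DMSO, the solvent, served as the control in both genotypes. STINGgt/gt mice (Goldenticket) carry a germline missense allele of the gene for STING in all cells, so they are not a T-cell-specific model, and the sample labels call them a knockout. A missense allele leaves its transcript to be counted, so the level of that transcript would not check the labels and is not used here. The study calls the libraries biological replicates, and the labels do not say whether they are separate mice, so the p-values measure the spread between these libraries.

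Chemokine genes fall into functional sets. Cxcl9, Cxcl10 and Cxcl11 encode the interferon-inducible ligands of CXCR3, the receptor that guides activated T cells and natural killer cells. Ccl3, Ccl4 and Ccl5 encode inflammatory CC chemokines, and activated T cells are a known source of all of them. Cxcl16 encodes a membrane-anchored ligand of CXCR6, Ccl22 and Ccl1 encode ligands of CCR4 and CCR8, and Xcl1 encodes lymphotactin, the ligand of XCR1 on cross-presenting dendritic cells. Transcription of several of them rises when IRF proteins bind an interferon-stimulated response element, or when NF-κB binds its own site.

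Several of these genes are neighbours in the genome (GENCODE annotation, GRCm38). Cxcl9 (chr5:92321347-92328079), Cxcl10 (chr5:92346638-92348889) and Cxcl11 (chr5:92359544-92365485) lie in a row on the minus strand, with 18.6 kb and 10.7 kb between them. Ccl5 (chr11:83525778-83530518, minus strand), Ccl3 (chr11:83647844-83649355, minus strand) and Ccl4 (chr11:83662584-83664683, plus strand) share a cluster in which 13.2 kb separates Ccl3 from Ccl4. Ccl1 (chr11:82176657-82305690) and Cxcl16 (chr11:70453983-70459984) lie at lower coordinates on the same chromosome, Ccl22 is at chr8:94745590-94751699 and Xcl1 at chr1:164931644-164935527. The annotation lists Cxcl11 as a polymorphic pseudogene, so its reads are given as reads on that locus and not as evidence of a protein.

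The promoters of 3 members are shown because these genes behaved differently although Cxcl9 and Cxcl10 are neighbours: Cxcl10 had a large and Cxcl9 a smaller response to CMA in WT cells, and Ccl3 moved in opposite directions in the 2 genotypes. Each sequence is the 250 bases before the RefSeq transcript start (GRCm38.p6, minus strand, written 5′ to 3′). Capitals mark matches to an interferon-stimulated response element written as GAAANNGAAA or an NF-κB site written as GGGANNTTCC, both searched on both strands. The windows are chr5:92328080-92328329 for Cxcl9, chr5:92348890-92349139 for Cxcl10 and chr11:83649379-83649628 for Ccl3.
Cxcl9: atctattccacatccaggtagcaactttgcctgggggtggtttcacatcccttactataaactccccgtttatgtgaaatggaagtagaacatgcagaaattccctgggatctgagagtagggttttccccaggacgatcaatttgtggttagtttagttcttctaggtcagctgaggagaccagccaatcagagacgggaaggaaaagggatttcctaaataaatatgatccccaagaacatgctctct
Cxcl10: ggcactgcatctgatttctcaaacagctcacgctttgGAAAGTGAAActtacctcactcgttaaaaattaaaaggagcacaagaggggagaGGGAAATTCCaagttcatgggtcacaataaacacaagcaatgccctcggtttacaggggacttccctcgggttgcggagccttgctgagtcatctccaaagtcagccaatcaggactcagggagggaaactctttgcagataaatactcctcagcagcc
Ccl3: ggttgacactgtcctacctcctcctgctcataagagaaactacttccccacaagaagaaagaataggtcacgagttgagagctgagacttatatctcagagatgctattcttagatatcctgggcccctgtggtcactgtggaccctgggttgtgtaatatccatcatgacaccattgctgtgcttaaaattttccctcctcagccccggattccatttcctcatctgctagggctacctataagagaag

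The Cxcl10 window held 1 match to each motif. The response element began 213 bases and the NF-κB match 159 bases before the start, and they did not overlap. Among all 32851 promoter windows of this length, 2.98% held the first motif, 1.21% the second and 0.0457% both. The Cxcl9 and Ccl3 windows held neither set of letters. Of the 6 members with a promoter in the RefSeq table, Ccl1 was the other with an NF-κB match, where the motif matched on both strands at overlapping positions, and the Ccl22 and Xcl1 windows held none. A match is a description of letters in a window, not of a bound factor, and the lack of one says only that these letters are not in it.

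CMA changed the level of all 9 tested chemokine genes in WT T cells, and 7 of them rose. The count of 7 higher stands beside a background in which 33.0% of all tested genes were higher, and the 2 lower (Ccl3 and Xcl1) beside 37.4% lower, called at an adjusted p under 0.05 (edgeR's quasi-likelihood F-test, p-values adjusted by Benjamini and Hochberg's method over 13811 genes). The median log2 fold change was 1.77 over the 9 genes and -0.04 over all genes tested. The rises ran from 1.25-fold for Ccl4 to 178-fold for Ccl5. Levels are in CPM, the reads on a gene relative to all reads of its library on tested genes, after scaling the libraries by the trimmed mean of M values (TMM), and each group below has n = 3 libraries, given in the order of their replicate numbers. The WT libraries with CMA also stood apart in their alignment tallies, with 6.79% to 7.16% of entries outside genes against 4.86% to 6.54% in the other 9 libraries, and 27.8% to 27.9% not unique against 28.1% to 30.3%. The part of these tallies in the chemokine changes was not tested. The paper reports that CD4+ T cells cultured overnight with CMA underwent apoptosis if WT but not if STINGgt/gt. The part of cell death in the levels given here was not tested either.

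**Figure D1:**
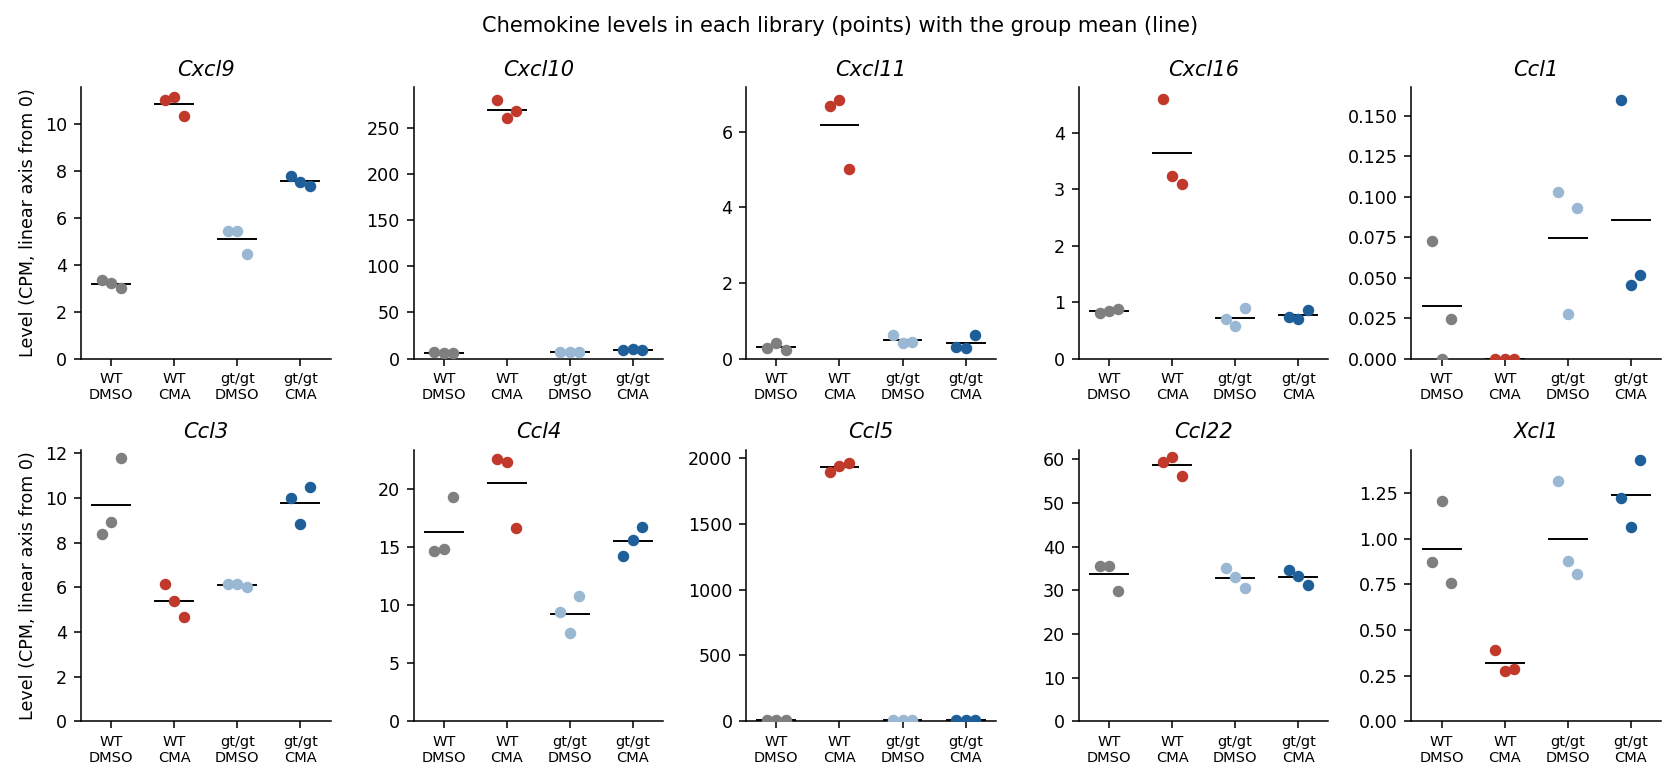
Level of each chemokine gene in CPM on a linear axis from 0, with a panel for each gene, a point for each library and a line at the group mean; gt/gt stands for STINGgt/gt. WT libraries with CMA stand far above the rest for Ccl5 and Cxcl10, and lowest for Xcl1, while Ccl3 was at 4.66 to 6.14 CPM in WT with CMA and at 8.82 to 10.5 CPM in STINGgt/gt with CMA.

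Ccl5, which encodes RANTES, had the largest change of the members. Its level was 9.07, 12.9 and 10.5 CPM in WT libraries with DMSO and 1894, 1938 and 1965 CPM with CMA. In STINGgt/gt it was 7.29, 6.95 and 7.16 CPM with DMSO and 6.97, 6.92 and 6.18 CPM with CMA. The WT libraries with CMA were far from all 9 others, and the STINGgt/gt groups overlapped. The log2 fold change with CMA was 7.48 (SE 0.09, adjusted p = 7.39e-19, edgeR) in WT and -0.09 (SE 0.10, adjusted p = 0.763, edgeR) in STINGgt/gt. The difference of these effects was 7.57 on the log2 scale (SE 0.13, adjusted p = 1.23e-15, edgeR).

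Cxcl10, which encodes the CXCR3 ligand IP-10 and carries both motifs printed above, followed. Its level was 7.25, 6.24 and 6.00 CPM in WT with DMSO and 280.1, 260.1 and 268 CPM with CMA. STINGgt/gt libraries held 6.91, 7.03 and 7.69 CPM with DMSO and 9.29, 10.3 and 9.48 CPM with CMA. CMA libraries were above DMSO libraries without overlap in both genotypes, on a very different scale. The rise was 41.8-fold in WT (log2 5.38, SE 0.07, adjusted p = 1.02e-18, edgeR) and 1.35-fold in STINGgt/gt (log2 0.43, SE 0.07, adjusted p = 0.00853, edgeR). The effects differed by 4.95 on the log2 scale (SE 0.10, adjusted p = 4.2e-15, edgeR). The small STINGgt/gt rise lost its call without DMSO replicate 1 (adjusted p = 0.0587), DMSO replicate 2 (0.0572) or CMA replicate 2 (0.0560), in edgeR, with log2 fold changes of 0.40, 0.41 and 0.38. Art3, on the opposite strand, shares 133 exonic bases with Cxcl10 and had 0 to 11 reads per library.

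Cxcl9, the neighbour of Cxcl10 and the CXCR3 ligand MIG, changed less in WT. Its level was 3.35, 3.22 and 3.00 CPM in WT with DMSO and 11.0, 11.1 and 10.3 CPM with CMA. In STINGgt/gt it was 5.44, 5.42 and 4.45 CPM with DMSO and 7.77, 7.51 and 7.35 CPM with CMA. No 2 of these 4 groups overlapped, and their order was WT with DMSO, STINGgt/gt with DMSO, STINGgt/gt with CMA and WT with CMA. The log2 fold change was 1.77 (SE 0.09, adjusted p = 5.35e-11, edgeR) in WT and 0.56 (SE 0.09, adjusted p = 0.00383, edgeR) in STINGgt/gt, and the difference was 1.21 (SE 0.13, adjusted p = 6.95e-07, edgeR).

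Cxcl11, the third CXCR3 ligand locus, was scarce outside WT cells with CMA. It had 8, 12 and 9 reads in WT with DMSO and 240, 222 and 159 with CMA, against 24, 15 and 14 in STINGgt/gt with DMSO and 12, 13 and 24 with CMA. The WT libraries with CMA stood apart and the STINGgt/gt groups overlapped. The level rose 20.7-fold in WT (log2 4.37, SE 0.24, adjusted p = 1.04e-10, edgeR). In STINGgt/gt the log2 fold change was -0.27 (SE 0.34, adjusted p = 0.799, edgeR), and the effects differed by 4.64 (SE 0.46, adjusted p = 2.87e-07, edgeR). A processed pseudogene on the opposite strand shares 1582 exonic bases with Cxcl11 and had 0 reads in every library.

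Cxcl16, the CXCR6 ligand, was at 0.80, 0.84 and 0.88 CPM in WT with DMSO and at 4.60, 3.24 and 3.09 CPM with CMA. STINGgt/gt libraries had 0.70, 0.57 and 0.90 CPM with DMSO and 0.75, 0.70 and 0.86 CPM with CMA, so only WT libraries with CMA were raised and the other 3 groups overlapped. The rise in WT was 4.33-fold (log2 2.11, SE 0.19, adjusted p = 4.57e-08, edgeR). STINGgt/gt gave a log2 fold change of 0.09 (SE 0.25, adjusted p = 0.911, edgeR), and the difference of the effects was 2.02 (SE 0.32, adjusted p = 4.99e-05, edgeR). Cxcl16 shares 552 exonic bases with Zmynd15 on the opposite strand, which had 2 to 39 reads per library and 91 reads over the WT libraries with CMA against 12 over those with DMSO. The libraries were made with a kit that keeps strand, but the strand setting of the counting is not given in the sources used here, so a part of this overlap in the Cxcl16 change was not tested.

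Ccl22, the CCR4 ligand MDC, changed by a modest factor in WT. It was at 35.5, 35.6 and 29.7 CPM in WT with DMSO and 59.4, 60.6 and 56.2 CPM with CMA, and the groups did not overlap. In STINGgt/gt it was at 35.0, 33.0 and 30.5 CPM with DMSO and 34.6, 33.2 and 31.2 CPM with CMA, almost the same range. The log2 fold change was 0.81 (SE 0.07, adjusted p = 2.57e-08, edgeR) in WT and 0.01 (SE 0.07, adjusted p = 0.987, edgeR) in STINGgt/gt, and the effects differed by 0.80 (SE 0.10, adjusted p = 3.44e-06, edgeR).

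Ccl3 moved in opposite directions in the 2 genotypes. Ccl3 encodes MIP-1α, a ligand of CCR1. Its level was 8.38, 8.92 and 11.8 CPM in WT with DMSO and 6.14, 5.399 and 4.66 CPM with CMA. In STINGgt/gt it was 6.13, 6.16 and 6.01 CPM with DMSO and 9.98, 8.82 and 10.5 CPM with CMA. WT libraries with CMA were all below those with DMSO, and STINGgt/gt libraries with CMA all above. WT with CMA and STINGgt/gt with DMSO overlapped, as did WT with DMSO and STINGgt/gt with CMA. The level fell by 0.86 on the log2 scale in WT (SE 0.13, adjusted p = 1.59e-05, edgeR) and rose by 0.68 in STINGgt/gt (SE 0.12, adjusted p = 0.0107, edgeR). The effects differed by -1.53 (SE 0.18, adjusted p = 1.63e-06, edgeR).

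CMA changed 166 genes in both genotypes, of which 130 moved in the same direction (0.941% of all tested) and 36 in opposite directions (0.261%), 13 of them lower in WT and higher in STINGgt/gt as Ccl3 was. Of all genes tested 182 were called in STINGgt/gt, so few could show the pattern, and the 36 made up 21.7% of those called in both genotypes and the 13 made up 23.6% of the 55 higher in STINGgt/gt. Ccl3 was the only one of the 9 tested members with opposite calls, and Cxcl9, Cxcl10 and Ccl4 had calls in the same direction. The STINGgt/gt side of the Ccl3 pattern was the less firm. Its call was lost without STINGgt/gt DMSO replicate 1 (adjusted p = 0.0587), 2 (0.0590) or 3 (0.0583) or without CMA replicate 3 (0.0737), in edgeR, with log2 fold changes of 0.68, 0.68, 0.66 and 0.62. The first digit of the library names may pair DMSO and CMA libraries, which the labels do not state, and with a block by that digit the STINGgt/gt calls of Ccl3 (log2 0.75, adjusted p = 0.0634), Cxcl10 (0.37, 0.112) and Ccl4 (0.61, 0.151) were lost in edgeR. That block rests on 2 pairs in STINGgt/gt, since replicate 2 of DMSO and replicate 2 of CMA have no partner by the digit. The difference between the genotypes kept its call with each of the 12 libraries left out in turn, and over all alternatives it lay between -1.64 and -1.34.

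Ccl4 encodes MIP-1β, a close relative of MIP-1α, and rose in both genotypes. Its level was 14.7, 14.9 and 19.3 CPM in WT with DMSO and 22.6, 22.3 and 16.6 CPM with CMA. STINGgt/gt libraries held 9.43, 7.55 and 10.8 CPM with DMSO and 14.2, 15.6 and 16.7 CPM with CMA. The WT groups overlapped through WT CMA replicate 3 and WT DMSO replicate 3, and the STINGgt/gt groups did not. The log2 fold change was 0.32 (SE 0.13, adjusted p = 0.0371, edgeR) in WT and 0.75 (SE 0.14, adjusted p = 0.0123, edgeR) in STINGgt/gt. The difference of -0.43 (SE 0.19, adjusted p = 0.0671, edgeR) did not pass the threshold.

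Both Ccl4 calls were lost when any of several libraries was left out. In WT this happened without DMSO replicate 1 (adjusted p = 0.126) or 2 (0.0870) or CMA replicate 1 (0.152) or 2 (0.138), and in STINGgt/gt without DMSO replicate 1 (0.0644) or 2 (0.0872) or CMA replicate 2 (0.0569) or 3 (0.0817), all in edgeR. Without these libraries the WT log2 fold changes were 0.27, 0.25, 0.25 and 0.26, those of STINGgt/gt 0.77, 0.62, 0.75 and 0.69. The difference of the effects passed without WT DMSO replicate 2 (adjusted p = 0.0208), WT CMA replicate 1 (0.0484) or STINGgt/gt DMSO replicate 3 (0.0353), also in edgeR.

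The ratio of Ccl3 to Ccl4 reads within a library needs no scaling between libraries. It was 0.571, 0.6005 and 0.612 in WT with DMSO and 0.272, 0.242 and 0.280 with CMA. STINGgt/gt libraries gave 0.650, 0.815 and 0.556 with DMSO and 0.701, 0.564 and 0.627 with CMA. The ratio in WT libraries with CMA, 0.265 ± 0.020 (SD, n = 3), was below that of the 9 other libraries, which overlapped across their 3 groups. This ratio shows that the 2 genes changed unequally and is given with no test.

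**Figure D2:**
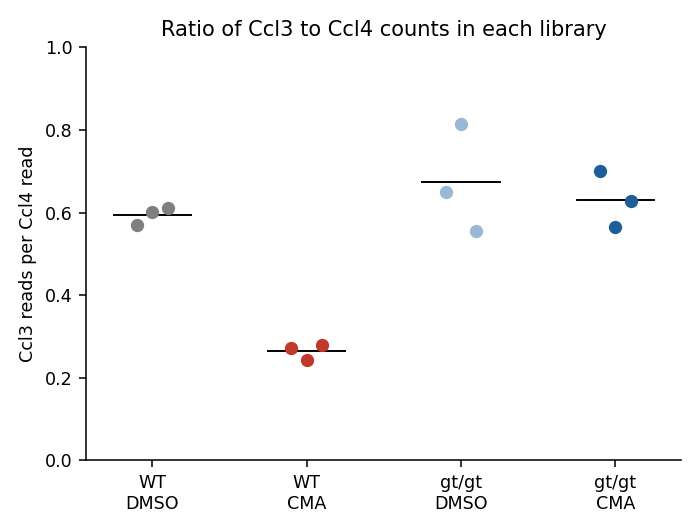
Ccl3 reads per Ccl4 read in each library on an axis from 0 to 1, with a point for each library and a line at the group mean; gt/gt stands for STINGgt/gt. WT libraries with CMA lie between 0.242 and 0.280 and the other 9 between 0.556 and 0.815.

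Xcl1 (lymphotactin) fell in WT and did not pass the test in STINGgt/gt. It had 24, 36 and 31 reads in WT with DMSO and 14, 9 and 9 with CMA, and 51, 32 and 26 reads in STINGgt/gt with DMSO and 46, 47 and 55 with CMA. As levels these were 0.874, 1.21 and 0.756 CPM against 0.391, 0.278 and 0.284 CPM in WT, without overlap, and 1.31, 0.876 and 0.809 CPM against 1.22, 1.06 and 1.43 CPM in STINGgt/gt, with overlap. Xcl1 fell by 1.53 on the log2 scale in WT (SE 0.30, adjusted p = 0.000268, edgeR). In STINGgt/gt the log2 fold change was 0.29 (SE 0.21, adjusted p = 0.624, edgeR). The effects differed by -1.82 (SE 0.37, adjusted p = 0.000528, edgeR). An annotated transcript on the opposite strand shares 98 exonic bases with Xcl1.

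Ccl1, the CCR8 ligand, was close to absent. It had 2, 0 and 1 reads in WT with DMSO, 0 reads in all 3 WT libraries with CMA, 4, 1 and 3 reads in STINGgt/gt with DMSO and 6, 2 and 2 with CMA. A count of 0 over the WT libraries with CMA allows a level of up to 0.0300 CPM (3 counts over the group, for counting error only). No test and no fold is given for it.

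In STINGgt/gt T cells 4 members rose with CMA (Cxcl9, Cxcl10, Ccl3 and Ccl4) and none fell, against backgrounds of 0.398% of tested genes higher and 0.920% lower. The count of 0 lower members was the same at an unadjusted p under 0.05 in edgeR, and at an adjusted p under 0.05 in DESeq2. All 4 rises were under 2-fold, with Ccl4 at 1.68-fold the largest, and the median over the 9 members was 0.29 on the log2 scale against 0.00 over all genes. With DMSO replicate 1 or 2 of STINGgt/gt left out, 1 of the 4 calls was left, and without CMA replicate 2 or 3, 2 were. For the difference of the CMA effect, WT minus STINGgt/gt, 6 members were higher and 2 lower, where 27.2% and 31.6% of tested genes were.

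**Figure D3:**
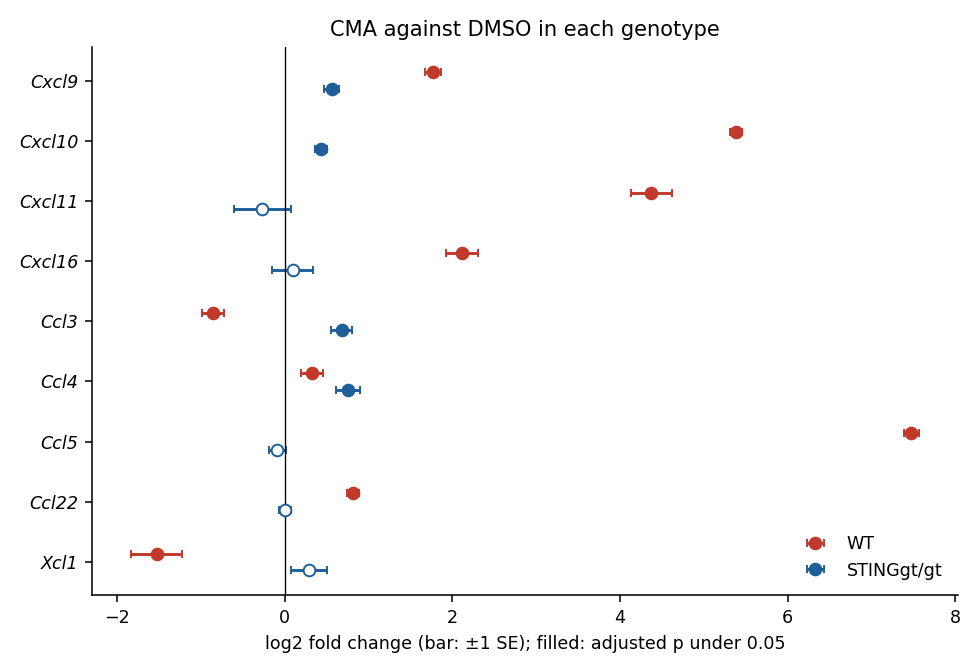
Log2 fold change of CMA against DMSO for the 9 tested genes in WT (red) and STINGgt/gt (blue), with bars of 1 SE and filled points where the adjusted p was under 0.05. Ccl5 lies at 7.48 and Cxcl10 at 5.38 in WT, and Ccl3 lies at -0.86 in WT and 0.68 in STINGgt/gt.

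The genotypes already differed with DMSO, where Ccl3, Ccl4 and Ccl5 were higher and Cxcl9 lower in WT than in STINGgt/gt. These 3 and 1 members stand beside 22.9% of tested genes higher and 19.8% lower. From the same libraries as above, the log2 difference was 0.69 for Ccl3 (SE 0.12, adjusted p = 0.000324, edgeR), 0.83 for Ccl4 (SE 0.14, adjusted p = 0.000181, edgeR) and 0.60 for Ccl5 (SE 0.10, adjusted p = 9.86e-05, edgeR), and the WT libraries were above the STINGgt/gt libraries without overlap for each. Cxcl9 was 1.61-fold lower in WT (log2 -0.69, SE 0.10, adjusted p = 4.45e-05, edgeR). Cxcl10, Cxcl11, Cxcl16, Ccl22 and Xcl1 did not pass, with log2 differences from -0.73 (Cxcl11) to 0.23 (Cxcl16), although the Cxcl11 groups did not overlap. Without WT DMSO replicate 1, Cxcl10 passed as well, at -0.24 (adjusted p = 0.0307, edgeR).

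With CMA all 9 tested members differed between the genotypes, 7 higher and 2 lower in WT, where 37.0% and 36.5% of tested genes were. Ccl5 was 288-fold (log2 8.17), Cxcl10 27.8-fold, Cxcl11 15.1-fold, Cxcl16 4.77-fold and Ccl22 1.78-fold higher in WT. Cxcl9 differed by 0.52 on the log2 scale (SE 0.08, adjusted p = 2.1e-05, edgeR), the reverse of its direction with DMSO. Ccl3 changed direction too, to -0.85 (SE 0.13, adjusted p = 1.29e-05, edgeR), and Xcl1 was 3.82-fold lower in WT. Ccl4 was 1.32-fold higher in WT (log2 0.40, adjusted p = 0.0104, edgeR), with overlapping groups. Its call was lost without WT CMA replicate 1 (log2 0.33, adjusted p = 0.0596, edgeR) or 2 (log2 0.33, adjusted p = 0.0571, edgeR). These comparisons share libraries with the comparisons of CMA against DMSO and are not independent of them.

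**Figure D4:**
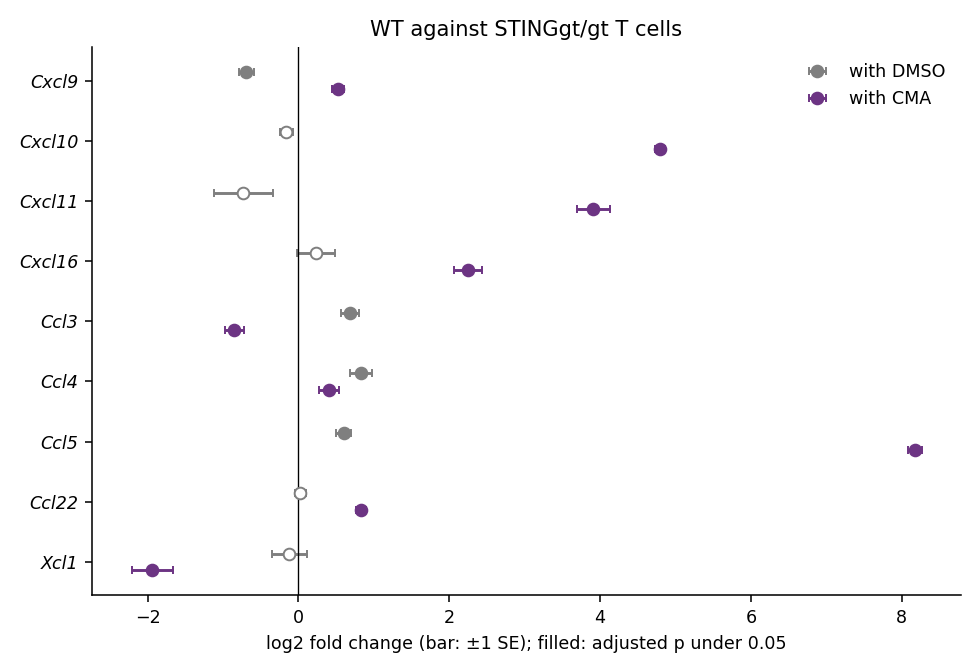
Log2 fold change of WT against STINGgt/gt for the 9 tested genes with DMSO (grey) and with CMA (purple), with bars of 1 SE and filled points where the adjusted p was under 0.05. Cxcl9 lies at -0.69 with DMSO and 0.52 with CMA, and Ccl3 at 0.69 and -0.85.

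Per kilobase of annotated exon, the order of the members changed with CMA in WT. With DMSO it began with Ccl4 (24.7 CPM per kb), Ccl22 (14.5), Ccl3 (12.7) and Ccl5 (11.3), followed by Cxcl10 (2.88), Xcl1 (1.81), Cxcl9 (1.06), Cxcl16 (0.278) and Cxcl11 (0.0802). With CMA in WT it began with Ccl5 (2013 CPM per kb) and Cxcl10 (119.6), then Ccl4 (31.1), Ccl22 (25.3), Ccl3 (7.05), Cxcl9 (3.59), Cxcl11 (1.63), Cxcl16 (1.21) and Xcl1 (0.607). STINGgt/gt cells kept Ccl4, Ccl22, Ccl3 and Ccl5 at the top in both treatments, with Ccl22 (14.1 CPM per kb) and Ccl4 (14.03) not separated with DMSO beyond their spread. Neighbours in an order were not always apart: in WT with DMSO the libraries ran from 12.8 to 15.3 CPM per kb for Ccl22, 10.9 to 15.4 for Ccl3 and 9.45 to 13.5 for Ccl5. With CMA in WT, Ccl4 overlapped with Ccl22 and Cxcl11 with Cxcl16. In STINGgt/gt, Xcl1 overlapped with Cxcl9 in both treatments and Ccl22 with Ccl3 with CMA.

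The WT and STINGgt/gt cultures also differed in transcripts of other cell types. In these bulk samples fewer cells of a type and less RNA per cell cannot be told apart. Summed over 6 B-cell markers, the level was 253 to 266 CPM in WT with DMSO, 350 to 378 with CMA, 115 to 122 in STINGgt/gt with DMSO and 114 to 115 with CMA. For 7 myeloid markers the sums were 53.5 to 60.7, 68.3 to 73.4, 40.0 to 43.3 and 37.7 to 43.1 CPM in the same order. The rise of this sum with CMA in WT came with Cst3 (38.6 to 55.7 CPM), while Lyz2 fell from 3.25 to 1.16 CPM and Itgam from 3.31 to 1.02 CPM. The sums were, for 6 markers of CD8 and natural killer cells, 121 to 138, 62.1 to 65.8, 58.2 to 60.4 and 60.4 to 64.4 CPM. Of these, all 6 B-cell, 6 of 6 tested myeloid and 5 of 6 CD8 and natural killer markers were higher in WT with DMSO, where 22.9% of all tested genes were, in the comparison in which Ccl3, Ccl4 and Ccl5 were also higher.

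Sums over 5 dendritic-cell markers were 18.0 to 21.0 CPM in WT with DMSO, 69.5 to 76.4 with CMA, 11.5 to 12.6 in STINGgt/gt with DMSO and 12.2 to 12.96 with CMA. Zbtb46 went from 8.25 to 55.5 CPM and Flt3 from 9.69 to 16.6 CPM with CMA in WT. Itgax fell in the same comparison from 1.23 to 0.387 CPM. The other markers of this list, Clec9a and Siglech, had at most 1 read in any library. The macrophage marker Adgre1, from the myeloid list, had at most 6 reads. With CMA in WT 5 of 6 B-cell markers rose and 4 of 6 CD8 and natural killer markers fell, as Ccl3 and Xcl1 did, beside 33.0% of all genes higher and 37.4% lower. The T-cell markers Cd3d, Cd3e, Cd3g, Cd4 and Cd28 summed to 1714 to 1834 CPM in WT with DMSO, 1599 to 1660 with CMA, 1888 to 1902 in STINGgt/gt with DMSO and 1924 to 1978 with CMA. With CMA in WT 3 of these 5 fell, among them Cd3e (log2 -0.66, adjusted p = 1.72e-09, edgeR), and Cd4 rose. The cells had been sorted as naive T cells before expansion, a step that would remove the other types. The part of other cell types in the chemokine levels was not tested.

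Genes known to raise chemokine transcription were read from a list of 9, all of which passed the filter. In WT 6 rose and 2 fell with CMA, beside 33.0% and 37.4% of all genes. Ifnb1, which encodes interferon-β, was at 0.0193 CPM with DMSO and 1.46 CPM with CMA, and Irf7 at 9.13 and 474 CPM (log2 fold change 5.69, adjusted p = 5.59e-15, edgeR). Irf1 rose by 0.97 and Tnf by 0.41 on the log2 scale. Ifng, which encodes interferon-γ, the classical inducer of Cxcl9, fell by 0.73 (adjusted p = 5.19e-07, edgeR), from 56.8 ± 0.593 to 34.1 ± 2.86 CPM (SD, n = 3), and Irf3 fell by 0.25 (adjusted p = 0.00373, edgeR).

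In STINGgt/gt, Irf1 (log2 0.29, adjusted p = 0.00383, edgeR) and Tbx21, the T-helper 1 regulator T-bet (0.30, adjusted p = 0.00208, edgeR), were the 2 of 9 that passed with CMA, both higher, beside 0.398% of all genes higher. With DMSO Ifng was 2.25 higher on the log2 scale in WT than in STINGgt/gt (adjusted p = 1.05e-11, edgeR), while 4 of the 9 were lower in WT, among them Tnf (-0.70) and Irf1 (-0.45), beside 22.9% of all genes higher and 19.8% lower. Cxcl9 was also lower in WT with DMSO. With CMA 6 of the 9 exceeded their STINGgt/gt level in WT and 2 were below it, beside 37.0% and 36.5% of all genes. The difference of the CMA effect, WT minus STINGgt/gt, passed above 0 for 5 and below 0 for 1, beside 27.2% and 31.6% of all genes. That 1 was Ifng (log2 -0.45), which fell by 0.73 on the log2 scale in WT and had a log2 fold change of -0.29 in STINGgt/gt (adjusted p = 0.212, edgeR).

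Of the receptors for these chemokines, 5 of 6 passed the filter, and Xcr1, the receptor for Xcl1, had at most 1 read in any library. With CMA in WT 2 rose and 2 fell, shares close to the 33.0% and 37.4% over all genes. Cxcr3, the receptor of Cxcl9, Cxcl10 and Cxcl11, rose from 6.11 ± 0.217 to 11.5 ± 2.54 CPM (SD, n = 3; log2 0.92, adjusted p = 4e-05, edgeR), and Ccr8, the receptor of Ccl1, rose by 0.68 (adjusted p = 5.68e-07, edgeR). Ccr4, the receptor of Ccl22, fell by 1.27 (adjusted p = 1.35e-11, edgeR) and Ccr1 by 0.72 (adjusted p = 0.00448, edgeR), and Cxcr6 did not pass (log2 0.23, adjusted p = 0.242, edgeR).

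No receptor passed with CMA in STINGgt/gt in edgeR, where 0.398% of all genes were higher and 0.920% lower, and 1 receptor was lower at an unadjusted p under 0.05. All 5 were higher in WT than in STINGgt/gt with DMSO, from 0.20 for Ccr4 to 3.75 for Ccr1 on the log2 scale, where 22.9% of all genes were higher. For the difference of the CMA effect Ccr4 (-1.14) and Ccr8 (0.73) passed, beside 31.6% of all genes lower and 27.2% higher. With CMA 4 of the 5 were higher in WT than in STINGgt/gt, and Ccr4 was lower (log2 -0.94), beside 37.0% and 36.5% of all genes.

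**Figure D5:**
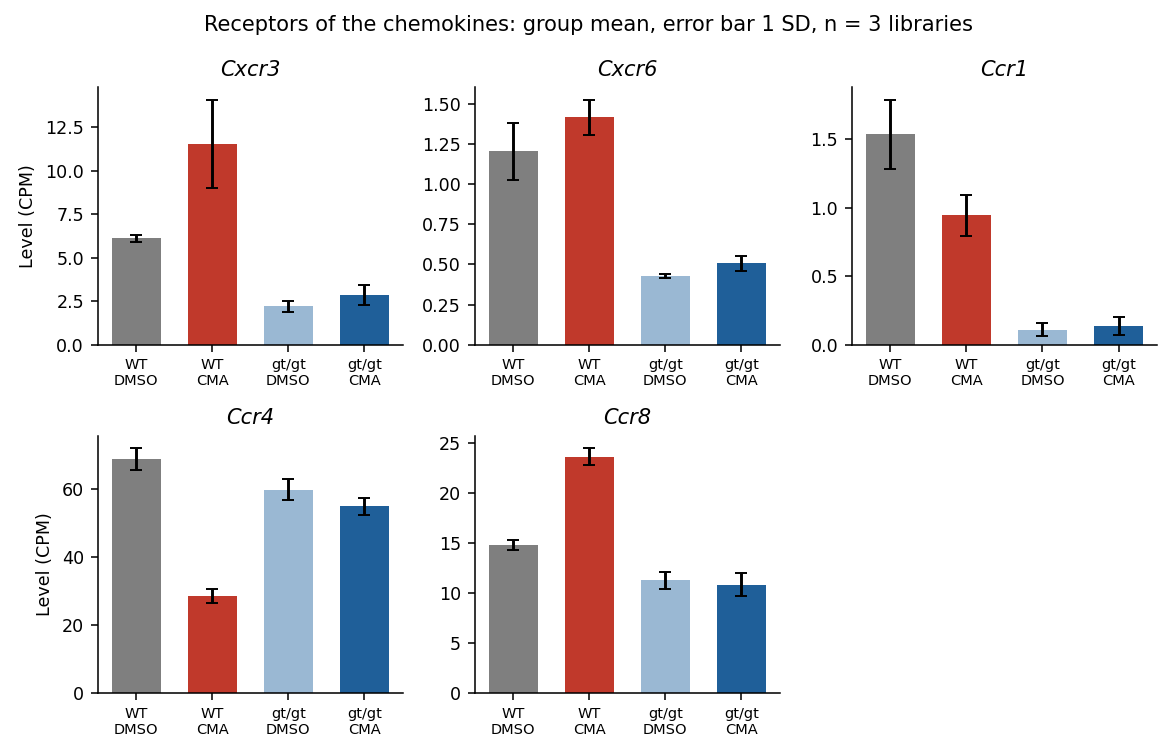
Mean level in CPM of the 5 tested receptor genes in each group on linear axes from 0, with error bars of 1 SD over 3 libraries; gt/gt stands for STINGgt/gt. Ccr4 goes from 68.98 to 28.7 CPM with CMA in WT and is at 59.98 and 55.1 CPM in STINGgt/gt.

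Most other chemokine genes were at or near 0. Of 29 further chemokine genes 6 passed the filter, 9 had 0 reads in every library, and those that did not pass had at most 16 reads in any library. With CMA in WT, Ccl25 rose by 0.35 (adjusted p = 0.0181, edgeR) and Pf4, platelet factor 4, by 1.21 (adjusted p = 0.00667, edgeR), while Ccl27a fell by 0.98 (adjusted p = 0.000192, edgeR) and Ccl6 by 0.57 (adjusted p = 0.00236, edgeR), all on the log2 scale, 2 and 2 of 6 beside 33.0% and 37.4% of all genes. Ccl9 (0.18) and Ppbp (0.92) did not pass. None of the 6 passed with CMA in STINGgt/gt in edgeR, where 1 was lower at an unadjusted p under 0.05 and 0.398% of all genes were higher and 0.920% lower. None passed for the difference of the effects, where 27.2% were higher and 31.6% lower. With DMSO, Ccl6 (1.72), Ccl9 (2.05) and Ppbp (1.90) were higher in WT than in STINGgt/gt and none was lower, beside 22.9% and 19.8% of all genes. With CMA, these 3 and Pf4 (1.85) were higher in WT and Ccl27a (-0.63) was lower, beside 37.0% and 36.5%. Pf4 and Ppbp, both known from platelets, were at or below 0.757 CPM on average in each group.

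The genes whose levels followed those of Cxcl10 most closely over the 12 libraries, among 11184 genes with a mean count of at least 50, were Ccr7 (Pearson r = 0.998), Plagl1 (0.998), Dennd5a (0.998), Icam1 (0.998) and Tgif1 (0.998). Ccr7, a chemokine receptor for lymph node homing, averaged 563, 2263, 584 and 634 CPM in WT with DMSO, WT with CMA, STINGgt/gt with DMSO and STINGgt/gt with CMA. Those most like Ccl3 were Arhgef7 (0.921), Sumo3 (0.881), Gtf2ird1 (0.878), Lrrc59 (0.874) and Rab11fip4 (0.872). The 12 points share their groups, so a value for Cxcl10 reflects mainly the gap between WT with CMA and the rest, and these are descriptions over genes that are not independent. By Spearman's rho none of the Cxcl10 set and 1 of the Ccl3 set (Gtf2ird1) were among the first 5.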

How the data were processed

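RNA of 12 T-cell cultures was sequenced from strand-specific mRNA libraries (TruSeq Stranded mRNA), with 3 libraries for each of WT DMSO, WT CMA, STINGgt/gt DMSO and STINGgt/gt CMA. CMA was used at 125 µg/ml. The submitters' processing notes name cutadapt 1.3, STAR 2.4.0f1, HTSeq 0.6.1, RSEM 1.2.16 and GRCm38. Unnormalized HTSeq read counts for 38924 Ensembl genes, deposited by the authors, served for all tests. The authors also deposited a log2 table of 11921 genes, which equals log2 of the count plus 0.5 and a constant per library and holds 8 of the 10 members (not Cxcl11 or Ccl1). It was used as an alternative.

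Tally lines that name no gene were left out of library sizes: non-unique alignments made up 27.8% to 30.3%, reads outside genes 4.86% to 7.16% and ambiguous reads 0.594% to 0.635% of all entries. Libraries held 27414450 to 43784910 reads on genes, so genes with few reads have wide errors.

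Levels are CPM with edgeR's TMM factors. Tests used edgeR 4.0.16 (glmQLFit, glmQLFTest; R 4.3.3) with the 4 groups in 1 model, filterByExpr by group (13811 genes) and Benjamini-Hochberg adjustment, with a threshold of 0.05. An SE is the log2 fold change divided by the square root of its F statistic. As alternatives, the scaling (library size), the tool (DESeq2 1.42.0, limma-voom, limma 3.58.1 on the log2 table), the filter (none, or a minimum of 10 counts per library), the samples in the fit (the compared groups alone, or each library omitted), the threshold (0.01, or a fold change of at least 2 besides) and blocks by replicate number or library name were varied. The model was tested on simulated counts of 12295 genes, in which 195 of 200 genes changed in WT with CMA were recovered (95 of 100 changed 2-fold) with 12 false calls. Only these 200 genes were changed, while in the data 33.0% of tested genes were called higher and 37.4% lower in WT with CMA. The simulation therefore does not check the scaling between libraries where most genes change. Genes with the fewest reads were left out of it. Replicates of a group differed by more than counting noise (chi-square per degree of freedom 2.59 to 29.0), so none was merged as 1 library deposited again, and whether libraries share a culture or animal was not tested.

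The members and lists were chosen with earlier results of these data known. The text names all members, the genes of the lists of other chemokines and receptors that passed the filter, and the 5 genes most like Cxcl10 and Ccl3. Some listed genes are not reported here. Promoters are RefSeq's (GRCm38.p6), present for 6 of the 10 members, and positions and exon lengths are GENCODE M21's.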

Additional observations from a re-analysis of the deposited data

Results flagged for a closer look

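For 8 of the 9 tested chemokine genes the genotypes responded differently to CMA, by the test of the difference itself in edgeR, 6 higher and 2 lower in WT, beside 27.2% of all tested genes higher and 31.6% lower. On the log2 scale, WT minus STINGgt/gt, it was 7.57 for Ccl5, 4.95 for Cxcl10, 4.64 for Cxcl11, 2.02 for Cxcl16, 1.21 for Cxcl9, 0.80 for Ccl22, -1.53 for Ccl3 and -1.82 for Xcl1, with adjusted p from 1.23e-15 to 0.000528. No test of outlying libraries was run.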

How the results depend on the processing

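Of 34 called member values in the 5 comparisons, 29 kept their call and direction with the threshold unchanged, under every other scaling, tool, filter, block or choice of libraries that gave them, and 5 lost the call under at least 1: Ccl4 in WT, Cxcl10, Ccl3 and Ccl4 in STINGgt/gt, and Ccl4 between genotypes with CMA. None was reversed. At an adjusted p under 0.01, 30 of the 34 were called, and with a 2-fold minimum 18. For CMA in STINGgt/gt, 4 members were higher, against 2 at an adjusted p under 0.01, 0 with a 2-fold minimum and 1 with the block by library name, and 1 to 4 with 1 library left out. A 2-fold minimum left 1 member lower with CMA in WT (Xcl1), 0 higher and 0 lower between genotypes with DMSO, and 4 higher and 1 lower with CMA. Requiring 10 counts in every library removed Cxcl11 and Xcl1, which left 1 lower member in WT, in the difference of effects and between genotypes with CMA. Leaving out 1 library gave 6 to 7 higher in WT with CMA, 1 to 2 lower between genotypes with DMSO, 2 to 3 lower for the difference of effects and 6 to 7 higher between genotypes with CMA. The causes were not tested beyond these.

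Replicate numbers were not taken to pair libraries, since the labels state no pairing. In WT they give the same pairs as the first digit of the library names. With group means taken out, same-numbered libraries correlated by 0.00195 to 0.132 in WT and 0.0585 to 0.0634 in STINGgt/gt. Differently numbered libraries were not compared, so these values cannot decide whether libraries are paired. With the replicate block the 4 higher members of STINGgt/gt, and the 7 higher and 2 lower of WT, had the same counts as without it. Ccl4 lost its WT call (log2 0.32) with library-size scaling (log2 0.30, adjusted p = 0.0501, edgeR) and on the log2 table (0.37, adjusted p = 0.0567, limma), and its STINGgt/gt call (log2 0.75) on that table (0.75, adjusted p = 0.0674, limma). Its difference of effects passed without a filter (0.00103, edgeR). Scaling by library size shifted the median log2 fold change of all genes in WT from -0.04 to -0.06 and moved 1 of 40 group levels by over 1 SD. Cxcl11, Cxcl16, Xcl1 and Ccl1 were the members with the fewest reads in WT with DMSO, at 29, 83, 91 and 3 over the group. With CMA in WT, Cxcl11 had 159 to 240 and Cxcl16 98 to 165 reads per library. The part of low counts in the spread of these members was not tested.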
